A study of Homo sapiens with 5 samples.

Results

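MonoMac6 cells cultured with 1 of 4 eicosanoids were treated as 1 group and set against unstimulated MonoMac6 cells. The group holds the 4 arrays titled with a lipid mediator, the leukotrienes B4 and C4 and the lipoxins A4 and B4, and with the unstimulated array they make up all 5 arrays of the series. MonoMac6 is an established cell line, grown from human cells of the monocyte lineage. Each eicosanoid was added at 100 nM from a stock in DMSO for 12 h, as the labels state. The sources used here do not give whether DMSO was added to the unstimulated cells or whether they too were kept for 12 h, so a difference shared by the 4 eicosanoids cannot be told apart from one made by the solvent or the culture time. Total RNA was hybridised to GeneChip arrays of 54675 probe sets, 1 array per condition. The question was which transcripts the 4 lipid mediators, of which the leukotrienes are called pro-inflammatory and the lipoxins anti-inflammatory, share against resting cells.

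Leukotrienes and lipoxins are short-lived lipids that phagocytes make from arachidonic acid, a fatty acid that phospholipase A2 frees from membranes. 5-Lipoxygenase (ALOX5), helped by its activating protein (ALOX5AP), forms leukotriene A4, which LTA4H turns into leukotriene B4 and LTC4S joins to glutathione as leukotriene C4. Lipoxins need a further lipoxygenase, such as ALOX12 or ALOX15. Leukotriene B4 acts through the receptor LTB4R and leukotriene C4 through CYSLTR1 and CYSLTR2, while FPR2 is a receptor described for lipoxin A4. All of these receptors couple to G proteins.

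With 1 array per condition no test was possible, and no p-value or standard error is given. Every mean difference below is the mean of 4 log2 differences, each eicosanoid array minus the same unstimulated array, and the SD beside it is the spread over 4 different compounds (n = 4). That SD leaves out the error of the unstimulated array, which all 4 differences share. Signals are given in a fixed order, first both leukotrienes (B4, then C4), next both lipoxins (A4, then B4), and last the unstimulated array. They are linear array signals in arbitrary units after each array was scaled by 1 factor, and they compare arrays for 1 probe set, not probe sets with each other. A signal under 48.7, the floor, is written as under the floor, and a difference against it is a lower bound.

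Several monocytic markers were above the floor on every array, some of them dimly. Lysozyme (LYZ) had signals of 47389, 48899, 46099 and 36105 on the eicosanoid arrays and 49119 on the unstimulated array. CEBPA, SPI1, FCER1G, MPO, TYROBP, CSF1R, CD14 and ITGAM were above the floor on all 5 arrays, while CD33 and CD68 had no measured probe set with a single gene symbol. On most arrays CSF1R (223 to 310), CD14 (188 to 319) and ITGAM (127 to 178) lay under 257, the 90th percentile of signals of other cell types' markers. The macrophage markers FCGR1A and MRC1 stayed under the floor on every array, with highest signals of 37.5 and 31.7. Summed signals of markers of other cell types ran from 8416 to 9622 with the eicosanoids and 8428 without for T and NK cells, from 3515 to 4487 and 3832 for B cells, and from 480 to 610 and 624 for erythroid cells and megakaryocytes. For fibroblasts and endothelium they ran from 10072 to 11293 and 10373, for epithelium and liver from 1197 to 1340 and 1297, and for nerve and muscle from 5308 to 5898 and 5318, so that the erythroid sum alone lay below the unstimulated one on all 4 arrays. The array pairs correlated at 0.988 to 0.993 over log2 signals. A pair of technical measures moved with the group. The control probe set for the middle of 18S ribosomal RNA had signals of 913, 3069, 365 and 1056 with the eicosanoids and 186 in unstimulated cells, a mean log2 difference of 2.45 ± 1.26, and the ribosomal control probe sets for the 5′ end of 28S and the 3′ end of 18S were higher by 1.65 ± 0.50 and 1.34 ± 0.39. The median deposited signal over all probe sets was 57.8, 59.5, 56.1 and 51.9 on the eicosanoid arrays and 65.4 on the unstimulated array. The part of both in the results below was not tested. Ratios of 3′ to 5′ signal for GAPDH were 0.996 to 1.06 with the eicosanoids and 1.03 without.

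Few genes stood apart from the unstimulated cells on every eicosanoid array, and most that did had dim signals. Of 15374 measured genes, 42 (0.273%) had a mean at least 2-fold higher with the eicosanoids and 155 (1.01%) a mean at least 2-fold lower. At least 2-fold on each of the 4 arrays were 11 genes higher (0.0715%) and 36 lower (0.234%). At 1.5-fold on each array the counts were 62 higher (0.403%) and 293 lower (1.91%). The surplus of lower genes depends on the scaling: higher genes made up 21.3% of the mean 2-fold calls here, 35.4% after quantile normalization (62 higher, 113 lower) and 15.2% with the values as deposited (33 higher, 184 lower). Of the 36 genes lower on all 4 arrays, 35 had a mean signal under 100, and in 18 of them all 4 eicosanoid values lay under the floor. After quantile normalization 23 genes were lower on all 4 arrays, in place of 36, and leaving out 1 eicosanoid array gave 55 to 75, the highest being without the leukotriene C4 array.

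Among the 7127 genes with a mean signal of at least 500, where the spread between arrays was smaller, no gene was 2-fold apart on all 4 arrays (0% in either direction). A single gene was 1.5-fold higher on all 4 (0.014%) and 7 were 1.5-fold lower (0.0982%). Small shifts were common there: 2794 of these genes (39.2%) were higher on all 4 arrays than in unstimulated cells and 961 (13.5%) were lower. Over all measured genes the same counts were 3720 (24.2%) and 3293 (21.4%). These splits too move with the scaling, to 2102 higher and 1510 lower among the brighter genes after quantile normalization and to 2197 and 1422 with the values as deposited. For all measured genes they became 3228 and 3327 after quantile normalization and 2982 and 4014 as deposited. The median of the mean differences was 0.03 over all genes and 0.07 over the brighter ones, and this last value was 0.02 after quantile normalization.

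**Figure D1:**
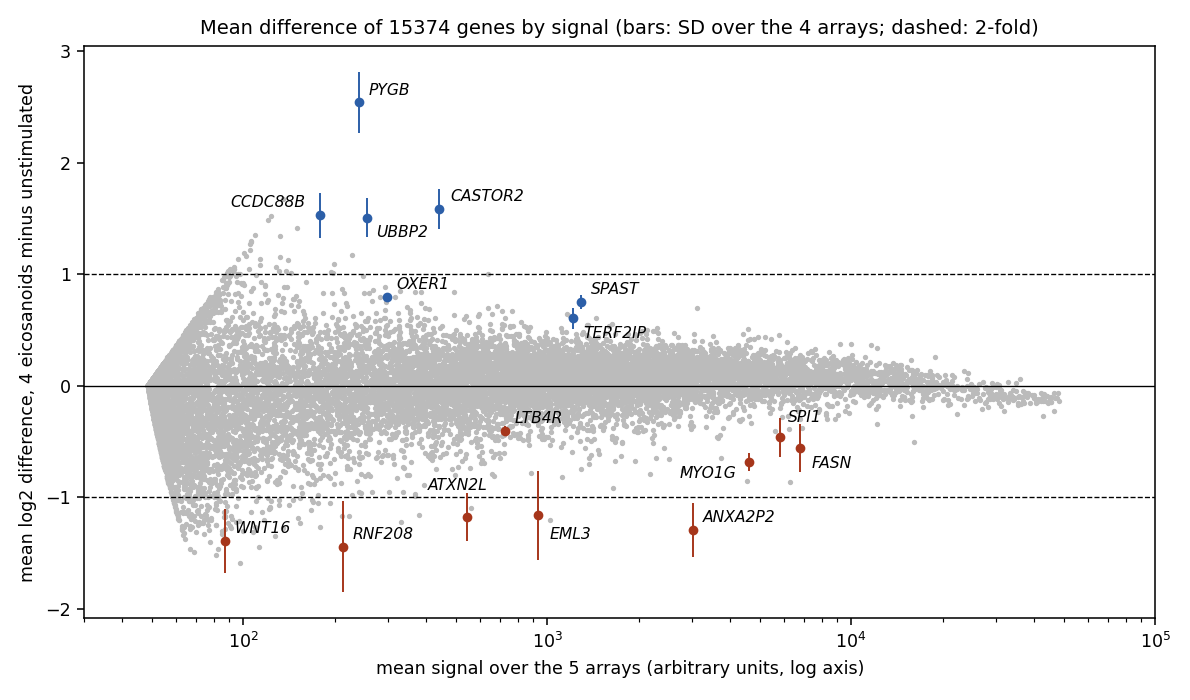
Mean log2 difference of the 4 eicosanoid arrays from the unstimulated array (vertical axis) against mean signal (horizontal log axis, arbitrary units). Each grey point is 1 of 15374 measured genes, coloured points are named genes with the SD over the 4 arrays as bars, and dashed lines mark 2-fold. The cloud narrows as the signal grows, and above a signal of 500 few points pass 2-fold.

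SPAST, which encodes the microtubule-severing enzyme spastin, was the brighter gene with the widest margin on the higher side. Its signals were 1491, 1362, 1360 and 1401 with the eicosanoids and 832 in unstimulated cells. The 4 eicosanoid arrays lay within a narrow band well above the unstimulated one, with a mean difference of 0.75 ± 0.06 (1.68-fold higher), and a second probe set gave 0.23. TERF2IP, a protein of the telomere-binding shelterin complex, had 1243, 1353, 1232 and 1403 against 860 in unstimulated cells (0.60 ± 0.09). PARG, which removes poly(ADP-ribose) from proteins, had 576, 569, 647 and 580 against 400 (0.57 ± 0.09). Neither gene's eicosanoid signals overlapped the unstimulated one. Another 5 bright genes had the next widest margins. They were TAF15 (0.64 ± 0.15), an RNA-binding protein, AEBP1 (0.63 ± 0.18), an extracellular carboxypeptidase-like protein, and PRKCI (0.62 ± 0.15), an atypical protein kinase C. The others were NEDD1 (0.53 ± 0.05), which brings gamma-tubulin to the centrosome, and TADA1 (0.52 ± 0.06), a subunit of the SAGA coactivator. Further probe sets gave 0.003 to 0.22 for TAF15, 0.37 to 0.44 for PRKCI, 0.01 to 0.21 for NEDD1 and 0.02 for TADA1.

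Lower bright genes reached larger differences. ANXA2P2, a processed pseudogene of annexin A2, had 2303, 2947, 1997 and 2158 with the eicosanoids and 5711 in unstimulated cells, a mean difference of -1.30 ± 0.24 (2.46-fold lower). Its parent gene ANXA2, which can share sequence with such probes, differed by 0.06 ± 0.12, so the pseudogene's values are uncertain. ATXN2L, an RNA-binding relative of ataxin-2 found in stress granules, had 427, 368, 527 and 417 with the eicosanoids and 975 without (-1.18 ± 0.22), and a second probe set gave -1.31. EML3, a microtubule-associated protein, had 801, 953, 766 and 496 against 1642 (-1.16 ± 0.40), with -0.79 on a second probe set. In each of these genes the highest eicosanoid signal stayed below the unstimulated one.

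SOX12, a transcription factor of the SOX family, had 315, 489, 597 and 450 with the eicosanoids and 963 in unstimulated cells (-1.09 ± 0.38). MYO1G, a class I myosin of blood cells that binds the plasma membrane, had 3932, 4223, 4392 and 3927 against 6613 (-0.68 ± 0.08), although its second probe set gave -0.09. GBF1, an exchange factor for Arf GTPases at the Golgi, had 551, 581, 590 and 485 against 890 (-0.69 ± 0.13). All 3 genes were lower on every eicosanoid array, with SOX12 spread most widely over the compounds. ARID3A, a DNA-binding protein (-0.80 ± 0.26), and CCNQ, a cyclin (-0.70 ± 0.14), were also lower on all 4 arrays. A second probe set gave -0.11 for ARID3A and -0.68 for SOX12. HCFC1, a chromatin cofactor of cell-cycle transcription, was chosen after its values were seen: it had 1427, 1305, 1676 and 1185 with the eicosanoids and 2628 without (-0.92 ± 0.21), but its other probe sets ran from -0.75 to 0.16. With SPAST, the 7 lower genes ANXA2P2, ATXN2L, EML3, SOX12, HCFC1, MYO1G and GBF1 were the bright genes at least 1.5-fold apart on all 4 arrays.

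**Figure D2:**
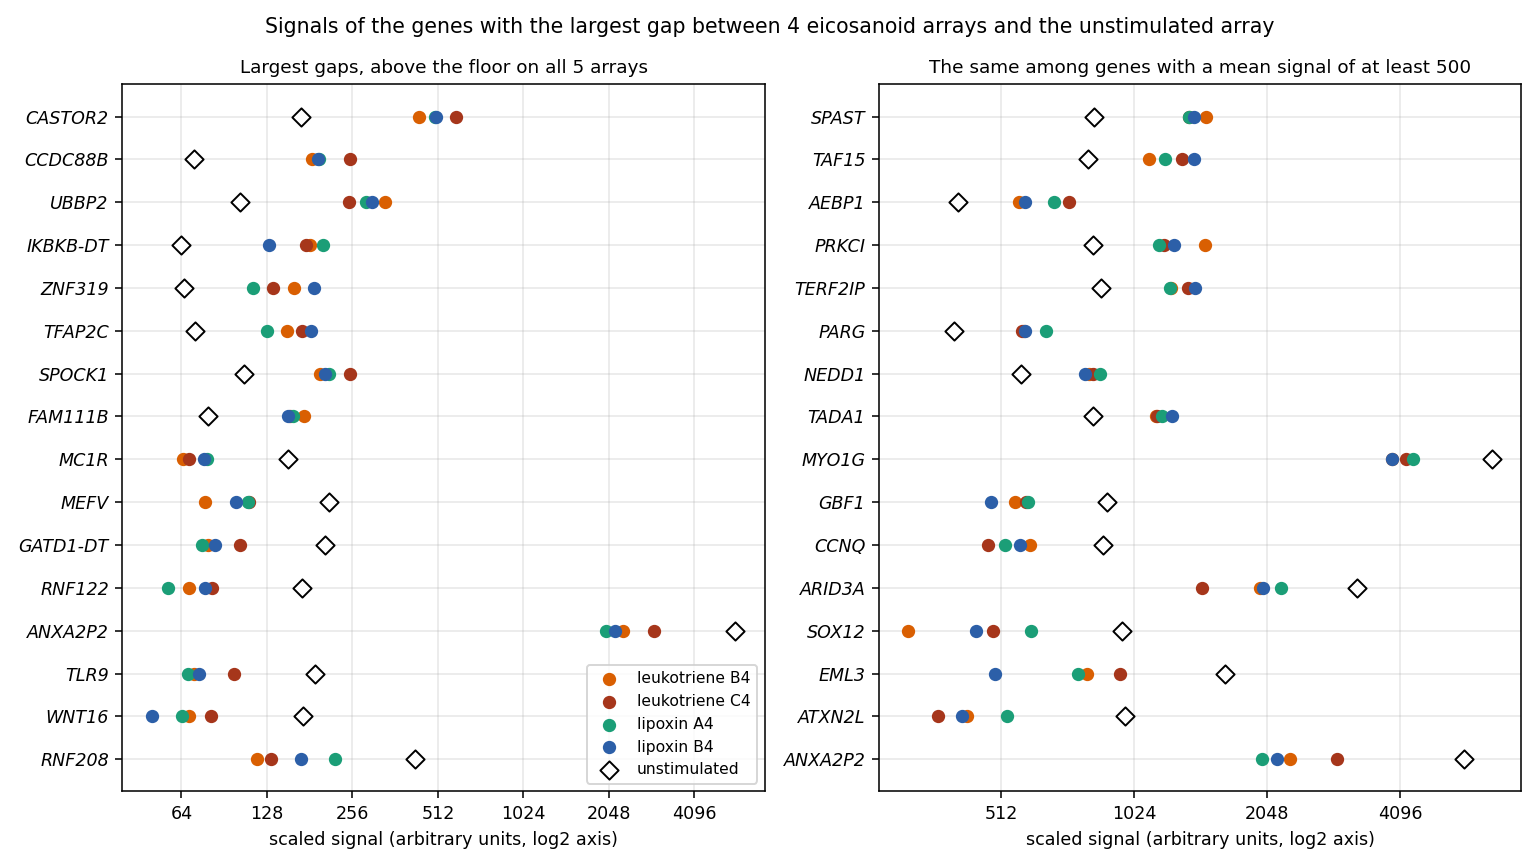
Scaled signals (horizontal log2 axis, arbitrary units) of the genes with the widest gap, above the floor on all 5 arrays (left) and among genes with a mean signal of at least 500 (right). Filled points are the 4 eicosanoid arrays and the open diamond is the unstimulated array, which lies outside the range of the filled points for every gene shown.

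The promoters of 4 genes described here are printed. Their transcripts lay on one side of the unstimulated array with all 4 compounds, as did those of 45.6% of all measured genes. For LTB4R this holds for the probe set of highest mean signal, while its other probe sets gave means of -0.14 to 0.09. Each is the 250 bases before the gene's start from RefSeq (GRCh38.p14), written 5′ to 3′ on the gene's strand, and capitals mark a match to a searched motif. The motifs were the E-box CACGTG bound by clock and MYC factors, the CRE TGACGTCA of cyclic AMP signalling, the AP-1 site TGANTCA, the GC box GGGCGG and the CCAAT box CCAAT, each searched on both strands. SPAST starts after chr2:32063306-32063555 on the plus strand, ATXN2L after chr16:28822749-28822998 on the plus strand, EML3 after chr11:62612776-62613025 on the minus strand, and the leukotriene B4 receptor gene LTB4R after chr14:24312857-24313106 on the plus strand.
SPAST: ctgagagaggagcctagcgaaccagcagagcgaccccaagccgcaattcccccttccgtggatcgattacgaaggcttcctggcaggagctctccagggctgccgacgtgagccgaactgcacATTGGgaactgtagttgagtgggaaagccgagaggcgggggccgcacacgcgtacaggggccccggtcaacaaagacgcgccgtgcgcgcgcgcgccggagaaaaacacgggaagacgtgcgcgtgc
ATXN2L: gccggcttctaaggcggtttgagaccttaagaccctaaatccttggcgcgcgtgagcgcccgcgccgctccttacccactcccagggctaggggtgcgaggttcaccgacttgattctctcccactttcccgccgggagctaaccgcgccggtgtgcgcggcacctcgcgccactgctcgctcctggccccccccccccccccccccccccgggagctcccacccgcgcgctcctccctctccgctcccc
EML3: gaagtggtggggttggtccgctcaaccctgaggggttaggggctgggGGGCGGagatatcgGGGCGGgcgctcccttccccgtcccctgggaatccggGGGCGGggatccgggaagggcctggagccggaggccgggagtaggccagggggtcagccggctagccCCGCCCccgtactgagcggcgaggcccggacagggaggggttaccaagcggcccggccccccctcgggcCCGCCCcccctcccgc
LTB4R: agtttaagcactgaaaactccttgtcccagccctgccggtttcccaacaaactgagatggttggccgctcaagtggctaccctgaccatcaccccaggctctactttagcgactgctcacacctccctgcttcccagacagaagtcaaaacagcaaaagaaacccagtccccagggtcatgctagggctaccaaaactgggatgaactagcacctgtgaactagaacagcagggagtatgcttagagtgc

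The SPAST window held 1 CCAAT box and the EML3 window 5 GC boxes, while the ATXN2L and LTB4R windows held none of the searched letters. Their GC contents were 64.8% for SPAST, 71.6% for ATXN2L, 76.4% for EML3 and 52.4% for LTB4R. A GC box stood in 58.6% of the 29 promoters found for the 42 genes with a mean at least 2-fold higher, in 44.6% of the 112 found for the 155 lower genes, and in 61.3% of all 12209 promoters of measured genes. For the CCAAT box these shares were 34.5%, 25% and 34.7%, and for the AP-1 site 6.90%, 4.46% and 4.44%. The E-box stood in 3.45% of the promoters of higher genes, 8.93% of those of lower genes and 8.45% of all promoters. The CRE was in 1 promoter of the higher genes (3.45%) and in 0 of the lower genes, against 2.64% of all promoters. These are counts of letters in short windows and say nothing of which factors bound there. The median GC content was 63.6% for promoters of higher genes, 60.4% for those of lower genes and 63.6% for all. The lower genes were also dimmer, with a median signal of 70.5 beside 113 for the higher genes and 395 for all measured genes. The part of GC content and signal in these shares was not tested.

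On the higher side the larger ratios came from dimmer genes. CASTOR2, a relative of the arginine sensor of the mTORC1 pathway, had signals of 439, 592, 499 and 505 with the eicosanoids and 169 in unstimulated cells (1.58 ± 0.18, 3.0-fold higher). CCDC88B, a protein of T cell and myeloid cell maturation, had 184, 251, 196 and 193 against 70.9 (1.53 ± 0.20). UBBP2, a ubiquitin B pseudogene whose probes may also read its parent gene, had 334, 249, 286 and 300 against 103 (1.5 ± 0.18). The eicosanoid signals of these genes lay close together and far above the unstimulated one. IKBKB-DT, a noncoding RNA divergent from the IKBKB gene, had 181, 176, 201 and 130 against 63.7 (1.41 ± 0.27). FAM111B, a protease linked to DNA replication (1.01 ± 0.09), SPOCK1, a proteoglycan (1.02 ± 0.15), TFAP2C, a transcription factor (1.13 ± 0.23), and ZNF319, a zinc finger protein (1.16 ± 0.31), were higher on all 4 arrays as well.

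On the lower side, TLR9, the endosomal receptor for unmethylated DNA, had 70.9, 98.2, 67.4 and 73.6 with the eicosanoids and 190 in unstimulated cells (-1.31 ± 0.24). MEFV, which encodes the inflammasome protein pyrin, had 77.2, 111, 110 and 99.3 against 211 (-1.10 ± 0.24). WNT16, a secreted WNT ligand, had 68.0, 81.6, 64.5 and 50.3 against 171 (-1.39 ± 0.29). These signals lay near the floor in the eicosanoid group and well above it in the unstimulated cells. RNF208, a ubiquitin ligase, had 118, 132, 223 and 169 against 424 (-1.44 ± 0.41), the leukotriene arrays being lowest. RNF122 (-1.28 ± 0.23), a ubiquitin ligase, MC1R (-1.08 ± 0.14), the melanocortin receptor, and the noncoding GATD1-DT (-1.27 ± 0.19) followed. No measured gene with the unstimulated array, or all 4 eicosanoid arrays, under the floor was 2-fold apart on all 4 arrays and backed by a second probe set at 1.5-fold.

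Several genes under the floor in unstimulated cells were chosen after their values were seen. PYGB, the brain form of glycogen phosphorylase, had 261, 275, 371 and 241 with the eicosanoids and was under the floor without. This makes its mean over the 4 arrays at least 5.82-fold higher, but its second probe set differed by -0.28. C14orf93 had 140, 164, 152 and 168 (mean at least 3.20-fold higher), and SNAI1, the transcriptional repressor Snail, had 101.1, 150, 149 and 155 (mean at least 2.81-fold higher). TREM2, a lipid-sensing receptor of macrophages, had 104, 108, 166 and 102, with a mean at least 2.41-fold above the unstimulated cells. Each of these 4 genes was above the floor on all 4 eicosanoid arrays. Of the 42 genes with a mean at least 2-fold higher, 22 lay under the floor in unstimulated cells, 22 dropped under 2-fold without their strongest array, and 5 of the 11 with further probe sets had all of them on the same side. Of the 155 lower genes, 120 were under the floor on at least 1 eicosanoid array, 49 dropped under 2-fold without their strongest array, and 17 of 49 had all further probe sets on the same side, beside 3111 of 7533 over all measured genes.

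Taken by the probe set of highest mean signal, most genes for making leukotrienes and lipoxins differed little. Of 12 measured genes of 14 listed, 1 was higher (8.33%) and 3 were lower (25%) on all 4 arrays, or 0 and 4 after quantile normalization. Over all measured genes the shares were 24.2% and 21.4%. The median mean difference of the 12 was -0.04, against 0.03 for all measured genes. ALOX5AP had 33323, 38844, 34442 and 25811 with the eicosanoids and 34336 in unstimulated cells (-0.07 ± 0.25, and 0.03 after quantile normalization), so that the groups overlapped. LTA4H had 3772, 3863, 3940 and 3753 against 3683 (0.06 ± 0.03, and -0.03 after quantile normalization). ALOX5 had 119, 140, 119 and 128 against 143 (-0.18 ± 0.11), with -0.47 to 0.08 on its other probe sets. LTC4S had 144, 227, 223 and 231 against 178 (0.19 ± 0.33), the leukotriene B4 array alone lying below the unstimulated one. Differences of this size were within the spread over the 4 compounds for ALOX5AP and LTC4S.

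Another pair of genes of this list was lower on all 4 arrays. COTL1, coactosin-like protein, which binds 5-lipoxygenase, had 1300, 1334, 1486 and 1607 with the eicosanoids and 1882 without (-0.40 ± 0.14), but its other probe sets gave 0.04 to 0.44. PLA2G4C, a calcium-independent phospholipase A2, had 133, 153, 91.7 and 168 against 206 (-0.63 ± 0.38). The other phospholipases were PLA2G4A, the main supplier of arachidonic acid (0.14 ± 0.11), and PLA2G6 (-0.12 ± 0.30, with -0.50 to 0.46 on its other probe sets). MGST2 (-0.01 ± 0.04) and MGST3 (-0.14 ± 0.14), microsomal glutathione transferases, and DICER1 (0.05 ± 0.12), listed here because Dicer binds 5-lipoxygenase, overlapped the unstimulated signal. Other probe sets gave -1.98 to -0.14 for MGST3 and -0.10 to 0.54 for DICER1. ALOX12 was above the floor only with leukotriene C4, at 60.1, and ALOX15 and ALOX15B stayed under the floor on every array, with highest signals of 18.9 and 29.9. Of 6 measured genes of leukotriene breakdown, 2 (33.3%) were higher on all 4 arrays, beside 24.2% of all measured genes. They were DPEP3 (0.06 ± 0.05), a dipeptidase, and PTGR1 (0.12 ± 0.05), which inactivates leukotriene B4. DPEP3 had arrays on both sides after quantile normalization and with the values as deposited.

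LTB4R had the smallest spread over the compounds of the 13 measured receptors on the list. It had signals of 687, 702, 689 and 651 with the eicosanoids and 906 in unstimulated cells, a mean difference of -0.41 ± 0.05 (1.33-fold lower). The 4 arrays agreed closely and all lay below the unstimulated one, from -0.37 with leukotriene C4 to -0.48 with lipoxin B4 and -0.40 with leukotriene B4 itself, but its other probe sets gave -0.14 to 0.09. CYSLTR1 had 1240, 1135, 1167 and 1040 against 1044 (0.13 ± 0.11), with lipoxin B4 level with the unstimulated cells. CYSLTR2 (-0.10 ± 0.39), FPR1 (-0.30 ± 0.27), and FPR2 (0.08 ± 0.09) were near the floor. Of 13 measured receptors of 18 listed, 0 were higher and 4 were lower on all 4 arrays, beside 24.2% and 21.4% of all measured genes. The other 3 were PTGIR, the prostacyclin receptor, TBXA2R, the thromboxane receptor, and PTGFR, the receptor for prostaglandin F2 alpha.

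PTGIR was above the floor on 1 eicosanoid array, at 56.4 with lipoxin B4, and had 89.3 in unstimulated cells (-0.82 ± 0.11), while its second probe set gave 0.24. TBXA2R had 143, 151, 91.2 and 139 against 169 (-0.40 ± 0.33), with -0.65 to 0.37 on its other probe sets. PTGFR differed by -0.35 ± 0.23, with 0.23 on a second probe set. The prostaglandin E2 receptors PTGER2 (-0.05 ± 0.21), PTGER3 (-0.15 ± 0.41) and PTGER4 (0.07 ± 0.08) overlapped the unstimulated signal, PTGER1 reached 108 with leukotriene C4 and stayed near or under the floor elsewhere, and PTGDR2 was near the floor (0.14 ± 0.37). FPR3, GPR17, OXGR1 and PTGDR stayed under the floor, and LTB4R2 had no probe set with a single symbol. OXER1, the receptor for the 5-lipoxygenase product 5-oxo-ETE, was on no list and was chosen after its values were seen. It had 316, 328, 326 and 326 with the eicosanoids and 186 without (0.80 ± 0.02), with no overlap between the groups. AKR1C2, an aldo-keto reductase of steroids and prostaglandins chosen in the same way, had 166, 166, 162 and 168 against 97.7 (0.76 ± 0.02), with -0.10 on a second probe set.

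Members of the inflammatory lists lay on both sides of the unstimulated array. The counts of list members higher or lower on all 4 arrays are to be read beside the 24.2% and 21.4% of all measured genes, which became 21.1% and 21.7% after quantile normalization and 19.4% and 26.1% with the values as deposited. For lists made up mostly of genes with a mean signal of at least 500, the 39.2% and 13.5% of such genes apply as well. The list members named from here on were, apart from MX1, OAS3 and the 6 genes that varied most between compounds, chosen after their values were seen. Of 18 measured chemokines, 2 were higher (11.1%) and 6 lower (33.3%) on all 4 arrays, or 1 and 4 after quantile normalization. Of 12 cytokines 1 was higher (8.33%) and 2 were lower (16.7%), with 4 lower as deposited. CCL23, a chemokine for monocytes, had 741, 719, 756 and 810 with the eicosanoids and 533 in unstimulated cells (0.50 ± 0.07), though a second probe set gave 0.04. CCL2, the main monocyte attractant, had 727, 1805, 777 and 763 against 769 (0.29 ± 0.63), so that leukotriene C4 alone carried its mean. CXCL2, a neutrophil attractant, was lower on all 4 arrays at 90.6, 79.3, 66.7 and 69.3 against 114 (-0.59 ± 0.20).

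Of 18 NF-kappaB subunits and targets, 7 were higher (38.9%, beside 24.2% of all measured genes and 39.2% of those with a mean signal of at least 500) and 4 lower (22.2%, beside 21.4% and 13.5%). SOD2, the mitochondrial superoxide dismutase induced by NF-kappaB, had 432, 446, 350 and 539 with the eicosanoids and 272 without (0.68 ± 0.26). RELB, a subunit of the alternative NF-kappaB pathway, had 125, 199, 232 and 203 against 281 (-0.60 ± 0.39). TRAF1, an adaptor of tumour necrosis factor receptors, had 66.0, 82.1, 68.1 and 64.0 against 129 (-0.89 ± 0.16), with 0.12 on a second probe set. Members of 1 list thus stood on opposite sides. Of 19 anti-inflammatory and feedback genes, 1 was higher (5.26%) and 5 were lower (26.3%), among them ZFP36, which destabilises cytokine transcripts (-0.34 ± 0.09), and SOCS1, an inhibitor of JAK kinases (-0.27 ± 0.09).

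Of 24 interferon-stimulated genes, 5 were higher (20.8%) and 4 lower (16.7%), near the 24.2% and 21.4% of all measured genes, and with the values as deposited 3 were higher and 6 lower. MX1, an antiviral GTPase, had 105, 97.3, 86.6 and 106 with the eicosanoids and was under the floor without them (mean at least 2.02-fold higher). OAS3, which makes the activator of RNase L, had 86.3, 64.1 and 105 with leukotriene B4, leukotriene C4 and lipoxin A4, lay under the floor with lipoxin B4, and had 171 in unstimulated cells (mean at least 2.34-fold lower). These classical interferon targets lay on opposite sides of the unstimulated array. BST2, tetherin, had 2802, 2967, 2703 and 2618 against 2306 (0.26 ± 0.08), and ISG15, a ubiquitin-like modifier, had 433, 533, 419.7 and 421 against 380.5 (0.24 ± 0.17).

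Transcripts that define the monocytic lineage were split. Of 20 measured monocyte and macrophage markers, 3 were higher (15%) and 6 lower (30%) on all 4 arrays (4 and 7 after quantile normalization), with a median mean difference of -0.02. SPI1, which encodes the lineage factor PU.1, had 4630, 5683, 6157 and 5315 with the eicosanoids and 7471 in unstimulated cells (-0.46 ± 0.17). CEBPA, the other lineage factor, had 14965, 16186, 16506 and 13097 against 18296 (-0.27 ± 0.15). Both were lower with every compound. The immune receptor adaptor TYROBP (-0.30 ± 0.13) and the M-CSF receptor CSF1R (-0.33 ± 0.20) were lower too, while the Fc receptor FCGR2A (0.25 ± 0.08), the factor IRF8 (0.17 ± 0.03) and the costimulator CD86 (0.28 ± 0.22) were higher. The 4 bright control probe sets for the cre spike-in, which is added to the sample and not made by the cells, differed by -0.13 ± 0.16, -0.15 ± 0.16, -0.15 ± 0.13 and -0.19 ± 0.06. Those for the bioB, bioC and bioD spike-ins ran from -0.29 ± 0.10 to 0.07 ± 0.23. The LYZ difference of -0.15 ± 0.20 lay within both ranges, and the CEBPA difference lay within the second.

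Of 22 phagocyte genes for the oxidase, granules and proteases, 5 were higher (22.7%) and 7 lower (31.8%), beside 24.2% and 21.4% of all measured genes. Of these 22 genes, 20 had a mean signal of at least 500, and for all genes that bright the shares were 39.2% and 13.5%. CTSZ, a lysosomal carboxypeptidase, had 2093, 4562, 3442 and 3392 with the eicosanoids and 2010 in unstimulated cells (0.69 ± 0.47), leukotriene B4 lying close to the unstimulated cells, and its second probe set gave 0.41. CYBB, the catalytic subunit of the phagocyte oxidase, had 1016, 1121, 1116 and 1023 against 895 (0.26 ± 0.08). The granule proteases PRTN3 (-0.25 ± 0.07) and AZU1 (-0.21 ± 0.21) were lower on all 4 arrays.

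The circadian clock list held genes on both sides, 7 higher (41.2%, beside 24.2% of all measured genes) and 5 lower (29.4%, beside 21.4%) of 17 measured, or 7 higher and 3 lower of 16 after quantile normalization. Cryptochromes and PER proteins hold back the activators CLOCK and BMAL1 in a daily cycle. CRY1 had 1054, 1080, 1092 and 1170 with the eicosanoids and 856 in unstimulated cells (0.36 ± 0.06), and NR1D2, a repressor of BMAL1, had 450, 431, 454 and 423 against 345 (0.35 ± 0.05), with 0.64 on a second probe set. PER2 (0.27 ± 0.13), BMAL1 (0.24 ± 0.06), NFIL3 (0.20 ± 0.06), BHLHE40 (0.14 ± 0.04) and CLOCK (0.13 ± 0.13) were higher on all 4 arrays as well, and BMAL1, BHLHE40 and CLOCK each had a further probe set below 0. CRY2 had 51.1, 128 and 63.2 with leukotriene B4, leukotriene C4 and lipoxin B4, lay under the floor with lipoxin A4, and had 160 without (-1.26 ± 0.65). The other lower members were CIART (-0.70 ± 0.21), a repressor of CLOCK and BMAL1, BHLHE41 (-0.39 ± 0.32), PER3 (-0.21 ± 0.17) and RORA (-0.20 ± 0.03), an activator of BMAL1. Each of the 5 lower genes was under the floor on at least 1 array, whereas the 7 higher genes were above it on all 5. The differences of the lower genes are therefore lower bounds. Values set to the floor also narrow their SDs, and for CIART and RORA most eicosanoid values were set to it. The sources used here do not give the hour of harvest.

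**Figure D3:**
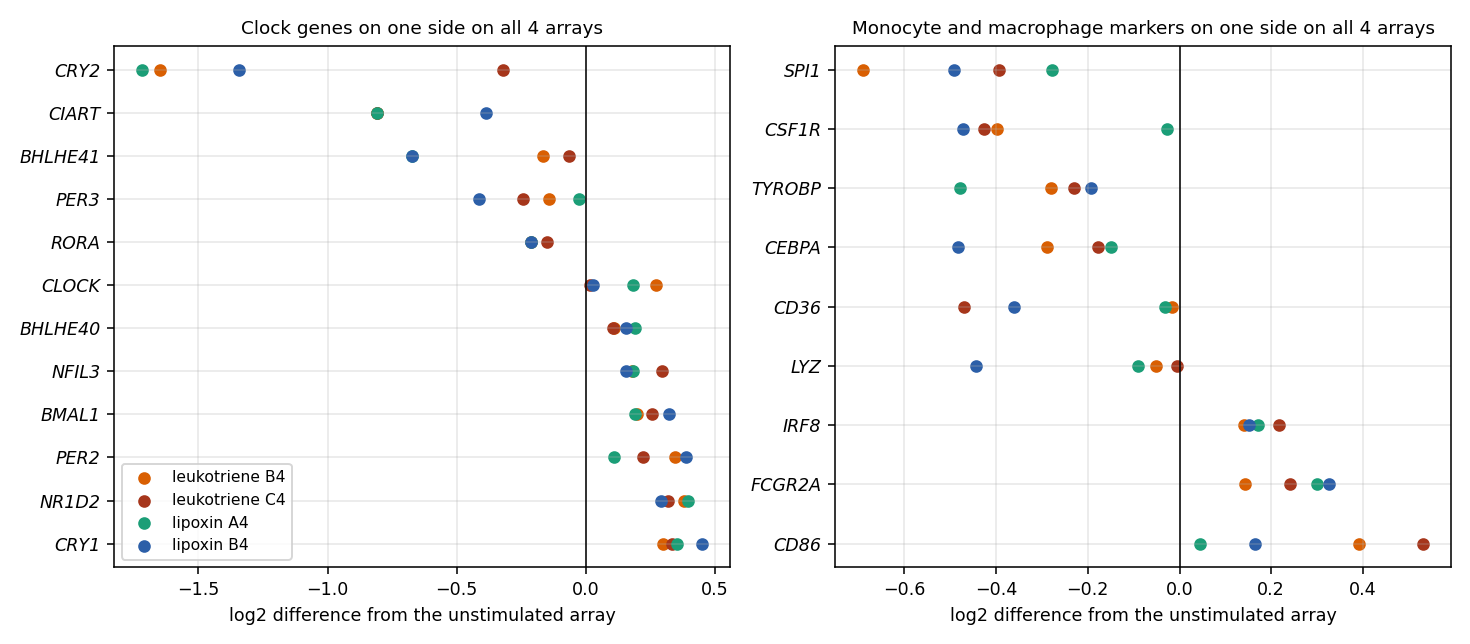
Log2 difference from the unstimulated array (horizontal axis) of circadian clock genes (left) and monocyte and macrophage markers (right) that lay on one side of it on all 4 arrays. Each point is 1 eicosanoid array and the vertical line at 0 is the unstimulated array. CRY1 and NR1D2 lie to the right and SPI1, CEBPA and CRY2 to the left with every compound.

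Heat shock proteins had the highest list median. Of 16 measured, 9 were higher (56.2%) and 0 lower on all 4 arrays, with a median mean difference of 0.12, which became 8 higher, 2 lower and 0.08 after quantile normalization. HSPA6, a strictly inducible Hsp70, had 135, 113, 89.6 and 83.2 with the eicosanoids and 67.4 in unstimulated cells (0.62 ± 0.32, with 0.67 on a second probe set). DNAJB4, an Hsp40 co-chaperone, had 1497, 1476, 1576 and 1458 against 1229 (0.29 ± 0.05). HSPA9, the mitochondrial Hsp70, differed by 0.22 ± 0.12. Of the 16 genes, 14 had a mean signal of at least 500, and 39.2% of all such genes were higher and 13.5% lower on all 4 arrays.

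Of 30 cell cycle genes, 29 of them with a mean signal of at least 500, 11 were higher (36.7%) and 3 lower (10%), no more than the 39.2% and 13.5% of all genes that bright. Their median of 0.05, beside 0.07 for those genes, became -0.01 after quantile normalization. The counts were then 5 higher (16.7%) and 4 lower (13.3%), beside 29.5% and 21.2% of all genes that bright. CDK1, the mitotic kinase, had 6215, 7814, 5979 and 6555 with the eicosanoids and 5286 without (0.32 ± 0.17). CCNE2, a cyclin of S phase entry, differed by 0.36 ± 0.13, while the proliferation marker MKI67 was lower on all 4 arrays (-0.28 ± 0.17). Of 21 p53 targets and apoptosis genes, 9 were higher (42.9%) and 2 lower (9.52%), or 7 and 5 with the values as deposited. These shares were 24.2% and 21.4% over all measured genes. Of the 21, 13 had a mean signal of at least 500, where the shares were 39.2% and 13.5%. MDM2, the ubiquitin ligase of p53 (0.30 ± 0.04), and PMAIP1, a BH3-only protein (0.34 ± 0.10), stood higher, and TP53INP1, a stress-induced p53 cofactor (-0.60 ± 0.13), stood lower. In the unfolded protein and amino acid stress list 8 of 25 were higher (32%) and 5 lower (20%), or 8 and 8 after quantile normalization. Of these 25 genes, 22 had a mean signal of at least 500, where 39.2% of all genes were higher and 13.5% lower. The glutathione-degrading CHAC1 had 100.9, 120, 129 and 115 against 73.9 (0.65 ± 0.15), and the stress factor DDIT3 was lower (-0.27 ± 0.09).

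In lipid metabolism, FASN, fatty acid synthase, had 5696, 6453, 7375 and 5267 with the eicosanoids and 9069 in unstimulated cells (-0.56 ± 0.21, with -0.53 on a second probe set). SREBF1, the factor that drives fatty acid synthesis, had 893, 763, 988 and 1046 against 1259 (-0.46 ± 0.20, with -0.73 on a second probe set). Both lay below the unstimulated signal with every compound on the chosen probe set, and the mean of the second probe set was below it too. Genes of the cholesterol branch were divided. The synthesis enzymes HMGCS1 (0.20 ± 0.08) and SC5D (0.24 ± 0.06), STARD4 (0.22 ± 0.05), a sterol carrier, IDI1 (0.11 ± 0.09), an enzyme of isoprenoid supply, and INSIG1 (0.11 ± 0.03), a sterol sensor, were higher on all 4 arrays. SREBF2, the factor that drives cholesterol synthesis, was lower on all 4 (-0.22 ± 0.18), with a further probe set at 1.34, and the enzymes MVD (-0.23 ± 0.27), DHCR7 (-0.11 ± 0.13), LSS (-0.05 ± 0.13), FDPS (-0.04 ± 0.18) and SQLE (-0.03 ± 0.09) had means below 0 with arrays on both sides. In all, 5 of 18 cholesterol and fatty acid genes were higher (27.8%) and 3 lower (16.7%), or 4 and 5 after quantile normalization. All measured genes gave 24.2% and 21.4%. Of the 18, 16 had a mean signal of at least 500, and all genes that bright gave 39.2% and 13.5%. Of 21 LXR and PPAR targets, 4 were higher (19.0%) and 5 lower (23.8%), with the lipid-sensing receptors NR1H3 at 0.35 ± 0.10 and PPARD at 0.36 ± 0.04. The related receptor PPARA was lower on all 4 arrays, with a mean of -0.22, and PPARG, with a mean of 0.14, had arrays on both sides.

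PFKFB3, which speeds glycolysis, had 311, 294, 353 and 299 with the eicosanoids and 206 without (0.60 ± 0.12), while 3 of 26 glycolysis and hypoxia genes were higher (11.5%, beside 24.2% of all measured genes) and 2 lower (7.69%, beside 21.4%). After quantile normalization 2 of them were higher and 6 lower. Of the 26 genes, 22 had a mean signal of at least 500, and of all genes that bright 39.2% were higher and 13.5% lower. Of 23 respiratory chain genes, 7 were higher (30.4%) and 1 lower (4.35%), or 9 and 3 after quantile normalization. All 23 had a mean signal of at least 500, where the shares over all genes were 39.2% and 13.5%. Those shares became 29.5% and 21.2% after quantile normalization. The complex I subunit NDUFA9 stood at 0.34 ± 0.06. All 17 ribosomal protein genes had a mean below 0 and 1 was lower on all 4 arrays, with a median of -0.11 that was -0.45 on the lipoxin B4 array alone, and -0.01 over the 4 arrays after quantile normalization. ZYX, the focal adhesion protein zyxin, was lower with every compound (-0.46 ± 0.15, with -0.51 on a second probe set).

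**Figure D4:**
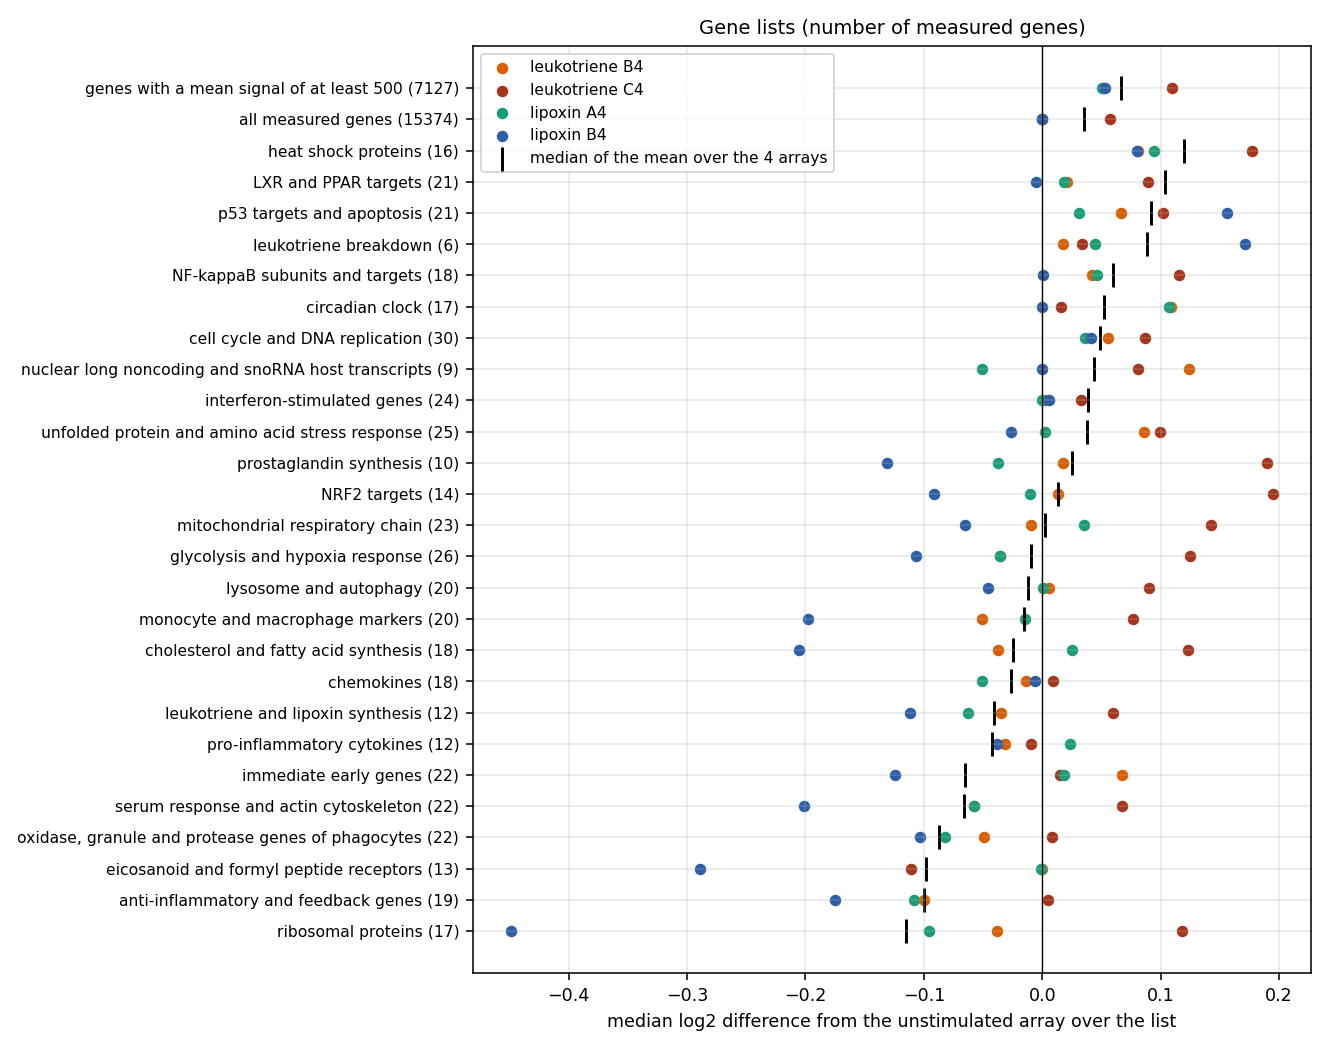
Median log2 difference from the unstimulated array over each gene list (horizontal axis), with the number of measured genes in brackets. Points are the 4 eicosanoid arrays, and the black tick is the median of the genes' means over the 4 arrays. Heat shock proteins have the highest list median, 0.12, and ribosomal proteins the lowest, -0.11. The leukotriene C4 array stands to the right and the lipoxin B4 array to the left in most lists.

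On some genes with a large mean the 4 compounds lay far apart. HINT3, a nucleotide hydrolase, had 523, 218, 1236 and 921 with the eicosanoids and 299 in unstimulated cells (1.0 ± 1.10), so that leukotriene C4 lay below and lipoxin A4 far above the unstimulated cells. DEFB124, a defensin, had 219 with leukotriene C4, 265 with lipoxin A4 and 81.0 with lipoxin B4 and lay under the floor with leukotriene B4 and without an eicosanoid (1.34 ± 1.17). HOXB5, a homeobox factor, had 194, 191 and 149 with leukotriene B4, leukotriene C4 and lipoxin B4, lay under the floor with lipoxin A4, and had 259 in unstimulated cells (-1.02 ± 0.95). For such genes the mean over the 4 arrays describes no single compound. CLDN19, a tight junction protein (-1.05 ± 0.98), and the noncoding LINC01875 (-1.04 ± 0.96) had SDs close to that of HOXB5, and the noncoding MIR1915HG a smaller one (1.0 ± 0.70). With 1 array for each compound, a difference between compounds could not be tested.

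How far the unstimulated array stood apart from the other 4 arrays, set against the leukotriene C4 array, depended on the scaling. With unstimulated cells as the single reference, 47 genes (0.306%) were at least 2-fold from all 4 other arrays. With leukotriene C4 as the reference there were 46 (0.299%), with lipoxin A4 25 (0.163%), with leukotriene B4 20 (0.13%) and with lipoxin B4 15 (0.0976%). For unstimulated cells and leukotriene C4 these counts became 62 and 37 with the values as deposited and 39 and 43 after quantile normalization, which turned their order. At 1.5-fold the counts were 355 (2.31%) for unstimulated cells, 328 (2.13%) for leukotriene C4, 145 (0.943%) for lipoxin A4, 139 (0.904%) for leukotriene B4 and 97 (0.631%) for lipoxin B4. Genes above or below all 4 other arrays made up 45.6% for unstimulated cells, 42.4% for leukotriene C4, 33.5% for lipoxin B4, 29.9% for leukotriene B4 and 25.3% for lipoxin A4. Among genes with a mean signal of at least 500 these shares were 52.7%, 47.7%, 43.3%, 31.9% and 24.4% in the same order. The number of genes on one side of the unstimulated array is therefore to be read beside the number for the leukotriene C4 array.

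**Figure D5:**
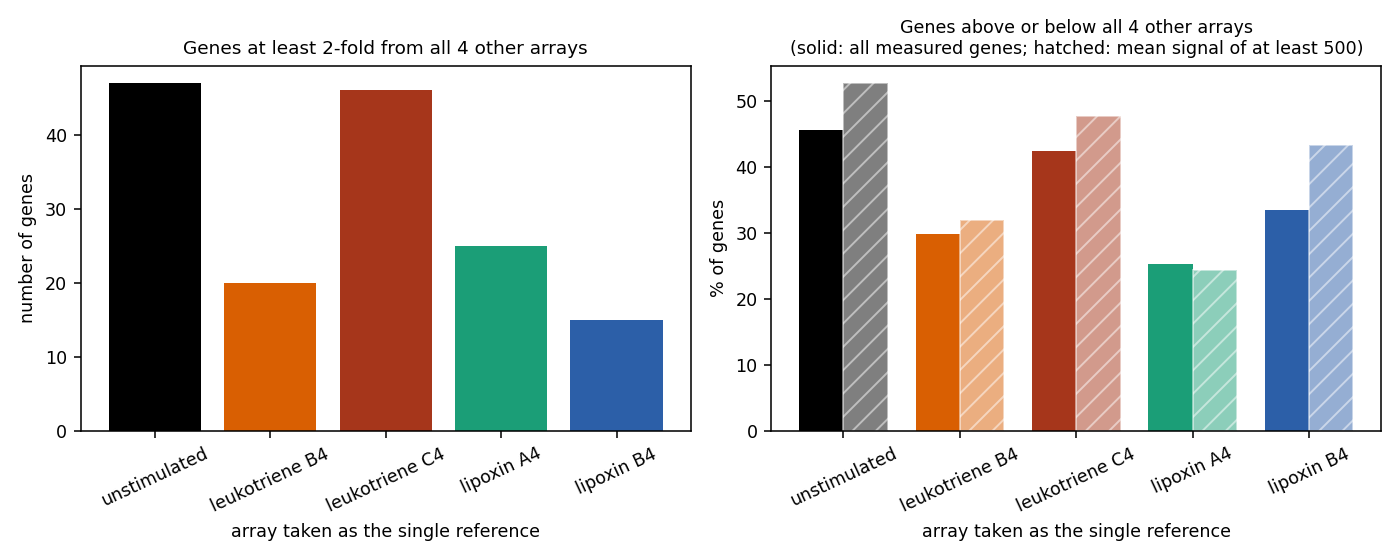
Number of genes at least 2-fold from all 4 other arrays (left) and percentage of genes above or below all 4 other arrays (right), with each array in turn as the single reference. The unstimulated array (47 genes, 45.6%) and the leukotriene C4 array (46 genes, 42.4%) stand close together and above the other 3.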

How the data were processed

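Each deposited value is a linear intensity signal of 1 probe set on 1 array, which the authors made with GCOS 1.4, per the submitters' processing notes; how GCOS was set is not stated there. With the top and bottom 2% of probe sets left out, deposited signals averaged 500.1 on every array, so the authors had scaled the arrays alike. Precision is limited by the number of arrays, 1 per condition, grouped by title.

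Each array was scaled by 1 factor (0.978 to 1.027) to the same median over the upper 50% of probe sets. Signals under the floor, the 50th percentile of mean log2 signal (48.7), were set to it. Probe sets above it on at least 1 array were called measured: 36755, of which 29420 carry 1 gene symbol. Of all 54675 probe sets, 62 are controls, 41097 carry 1 symbol in the platform annotation, 1801 carry several and 11777 are not listed; 41043 matched the RefSeq gene table (GRCh38.p14). A gene is its measured probe set of highest mean signal, and 7533 of 15374 genes had several, of which 4422 had 1 or more of opposite sign.

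Named genes had no measured probe set of opposite sign. They were the 8 each way with the widest margin on all 4 arrays, the 8 each way at a mean signal of at least 500, list members at 1.5-fold on all 4 arrays, all genes of eicosanoid synthesis and receptors, and the 3 each way with the largest SD among those with a mean at least 2-fold apart. Genes and receptors of eicosanoid metabolism were given whatever their probe sets showed. The group, the 26 gene lists and the 6 marker lists were chosen with earlier results of these data known. Alternatives were 3 other floors, quantile normalization, no further scaling, averaging a gene's probe sets, the median over arrays, a 1.5-fold threshold and leaving out each eicosanoid array. Counting was tested on simulated data. Python 3.11.15, pandas 2.3.3, numpy 2.4.6 and matplotlib 3.10.9 were used.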

Additional observations from a re-analysis of the deposited data

Results flagged for a closer look

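Among 55 genes named by rule or added later and above the floor on all 5 arrays, 4 had 1 eicosanoid array far from the other 3 by the critical ratio of Dixon's gap test. Among replicates of genes picked without regard to their values, chance alone passes it in about 1 in 20 groups, which for 55 genes is 2.75. That rate does not hold here, because the 4 arrays are different compounds and many of the genes were picked by these same differences. The gaps are therefore given as description only. PARG had a log2 difference of 0.70 on the lipoxin A4 array, above the other 3. LTC4S had -0.30 on the leukotriene B4 array, TBXA2R had -0.89 on the lipoxin A4 array, and OXER1 had 0.76 on the leukotriene B4 array, each below the other 3. The whole range of the OXER1 differences was small, so its gap is small as well.

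In PLA2G6, a calcium-independent phospholipase A2, and PTGDR2, a prostaglandin D2 receptor, both leukotriene arrays lay above and both lipoxin arrays below the unstimulated array. The mean leukotriene difference exceeded the mean lipoxin difference by 0.42 on the log2 scale for PLA2G6 and by 0.64 for PTGDR2, whose lipoxin values lay under the floor. Other probe sets of PLA2G6 had mean differences over the 4 compounds of -0.50 to 0.46. With 1 array per compound the differences between leukotrienes and lipoxins were not tested.

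Control probe sets outside the gene analysis were at least 1.5-fold higher on all 4 eicosanoid arrays than on the unstimulated array. The mean log2 differences were 1.34 for the 3′ end, 2.15 for the 5′ end and 2.45 for the middle of 18S ribosomal RNA, and 1.65 for the 5′ end of 28S ribosomal RNA. Their part in the gene results was not tested.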

How the results depend on the processing

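The choice of floor moved the counts most. With the floor at the 30th percentile of signal (17.4), 473 genes had a mean at least 2-fold higher and 1189 a mean at least 2-fold lower, and 108 and 314 were so on all 4 arrays. With each array as the single reference the counts were then 308 for leukotriene B4, 445 for leukotriene C4, 317 for lipoxin A4, 205 for lipoxin B4 and 422 for unstimulated cells, so that leukotriene C4 stood first. With the floor at the 70th percentile (244) the means gave 2 higher and 7 lower genes and 0 on all 4 arrays in either direction. A floor at the 90th percentile of signals of other cell types' markers (257), some of which monocytic cells express, gave 1 and 7, and 0 on all 4 arrays. Under both of these floors 2 genes stood apart for leukotriene C4 as the reference and 0 for each other array. Quantile normalization gave 23 genes lower on all 4 arrays. The mean of all probe sets gave 13 genes for leukotriene B4 and 6 for lipoxin B4 as the reference. A 1.5-fold threshold gave means of 268 higher and 875 lower, and 62 and 293 on all 4 arrays. Leaving out 1 eicosanoid array gave 13 to 17 genes higher and 55 to 75 lower on all remaining arrays, since fewer arrays had to pass (17 higher without lipoxin A4; lower, 57 without leukotriene B4, 75 without leukotriene C4, 58 without lipoxin A4 and 55 without lipoxin B4). The mean difference of LTA4H turned to -0.030 after quantile normalization and that of COTL1 to 0.026 with the mean of all probe sets; the cause was not tested. Other named genes, all with arrays on both sides of the unstimulated one, changed sign as well. After quantile normalization ALOX5AP became 0.034, CYSLTR2 0.022, DICER1 -0.0078 and PTGER4 -0.012. With the floor at the 30th percentile FPR2 became -0.15 and PTGDR2 -0.41, and with the mean of all probe sets PTGER3 became 0.22. Without lipoxin B4, ALOX5AP, CYSLTR2, MGST2, PLA2G6 and PTGER2 turned to between 0.0034 and 0.081. Dim signals limit the results: 35 of the 36 genes lower on all 4 arrays had a mean signal under 100. No paired analysis was possible because each condition has 1 array.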

Other observations

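Gene groups not described above were divided between both sides as well, and their counts are to be read beside the 24.2% of all measured genes higher and 21.4% lower on all 4 arrays. Mean signals reached 500 in 12 of 14 NRF2, 16 of 20 lysosome and autophagy and 17 of 22 serum response genes. For all genes that bright the shares were 39.2% and 13.5%. Of 22 immediate early genes, 5 were higher (22.7%) and 2 lower (9.09%), or 4 and 5 with the values as deposited, with a median of -0.06 that became 0.06 after quantile normalization. MYC, a growth factor-responsive transcription factor, had 13543, 14284, 13170.1 and 12112 with the eicosanoids and 11671 in unstimulated cells (0.18 ± 0.10), and JUN, a subunit of AP-1, differed by 0.27 ± 0.04. Both were higher with every compound, while JUNB was lower (-0.20 ± 0.10). Of 14 NRF2 targets, 3 were higher (21.4%) and 2 lower (14.3%), or 6 and 2 after quantile normalization, among them the glutathione synthesis subunit GCLM (0.25 ± 0.07) and malic enzyme ME1 (0.31 ± 0.07) on the higher side and NQO1 (-0.13 ± 0.01) on the lower. HMOX1, heme oxygenase, had 108, 210, 93.6 and 130 against 95.4 in unstimulated cells (0.43 ± 0.51), highest with leukotriene C4.

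Of 20 lysosome and autophagy genes, 5 were higher (25%) and 4 lower (20%), or 3 and 5 with the values as deposited, with the calcium channel MCOLN1 at 695, 747, 566 and 597 with the eicosanoids and 513 in unstimulated cells (0.33 ± 0.19). Of 22 serum response and actin genes, 1 was higher (4.55%) and 3 were lower (13.6%), with 6 lower after quantile normalization and 7 as deposited. Of 10 genes of prostaglandin synthesis, 2 were higher (20%) and 2 lower (20%), or 1 and 2 as deposited, with the prostaglandin reductase CBR1 at 0.35 ± 0.24 and the prostaglandin E synthase PTGES2 at -0.40 ± 0.20. None of 9 nuclear noncoding and snoRNA host transcripts lay on one side on all 4 arrays. Of the marker lists of other cell types, T and NK cells had 1 higher and 1 lower gene of 10, B cells 0 and 2 of 8, and erythroid cells and megakaryocytes 1 and 3 of 7. Fibroblasts and endothelium had 2 and 1 of 7, epithelium and liver 1 and 2 of 8, and nerve and muscle 1 and 0 of 6. The genes named here were chosen after their values were seen.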
